A study of Mus musculus with 2 samples.

Results

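Interferon-stimulated genes are the genes that cells switch on when an interferon binds its receptor. A list of 39 such genes was followed here, out of 55536 annotated genes, in total RNA of the mouse adrenal gland. Members were taken by gene symbol alone, and all 39 were found in the gene tables. The series held 2 libraries of whole adrenal gland from female B6CASTF1/J mice aged 2 months, labelled as biological replicates 1 and 2 and called animal 1 and animal 2 below. No treatment, infection or second genotype is given in the labels, so both libraries belong to a single group. B6CASTF1/J mice are the offspring of C57BL/6J and CAST/EiJ parents, so each gene has an allele of each strain, and the deposited values do not separate the alleles. The labels disagree on whether these were separate mice: a single animal number stands in both library descriptions, 2 numbers stand in the tissue descriptions, and both samples carry the same donor identifier. The biological replicate numbers were followed.

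Interferons are secreted proteins that warn neighbouring cells of infection. Type I interferons bind the receptor made of IFNAR1 and IFNAR2, whose kinases JAK1 and TYK2 phosphorylate STAT proteins. STAT2 and IRF9 are subunits of ISGF3, the transcription factor that then binds the interferon-stimulated response element (ISRE) in target promoters. Interferon gamma acts through its own receptor, and its targets carry the gamma-activated site (GAS). The targets encode sensors of foreign RNA and DNA, proteins that block steps of virus replication, and regulators that raise or end the response. Many of them are also transcribed at a low level in tissues without infection.

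Promoter windows show the sequence to which these factors are known to bind. RefSeq windows on GRCm38.p6, from 250 bases before to 50 after a start site, were found for 28 of the 39 members. The ISRE was searched as the letters GAAANNGAAA on both strands, where the N positions may be any base, and matches were allowed to overlap. These letters were in the windows of 14 of the 28 members (50%), against 3.99% of all 27025 genes with a window. Counted by window, they were in 14 of 32 member windows (43.75%) and in 3.44% of all 32851 windows. The GAS letters TTCNNNGAA were in 6 of the 28 members (21.4%), against 9.55% of all genes with a window. A match is a run of letters and was not tested as a binding site.

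The stretches below, written 5′ to 3′ on the strand of the gene with the ISRE matches in capitals, show where the letters lie in members described later. Isg15, which encodes a ubiquitin-like protein, held 3 overlapping matches on its own strand between 78 and 57 bases before the start, and its whole window (chr4:156200769-156201068, minus strand) is given.
Isg15: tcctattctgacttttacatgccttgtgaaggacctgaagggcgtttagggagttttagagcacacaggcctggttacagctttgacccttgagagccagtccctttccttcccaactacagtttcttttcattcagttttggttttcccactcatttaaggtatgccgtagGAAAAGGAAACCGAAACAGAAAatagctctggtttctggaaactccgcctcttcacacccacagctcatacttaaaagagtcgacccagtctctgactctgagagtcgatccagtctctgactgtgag

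IFIT proteins bind viral RNA, and Ifit1, Ifit3 and Ifit3b each carried a pair of matches on the opposite strand, while the window of Ifit2 held none. Ifit1 (chr19:34640765-34640833, plus strand) held matches beginning 104 and 85 bases before the start. Ifit3 (chr19:34583353-34583436, plus strand) and its near copy Ifit3b (chr19:34607749-34607832, plus strand) are shown because their stretches of 84 bases were identical at all 84 positions. Aligned at the first match without gaps, the whole windows of this pair were identical at 201 of 268 positions (75%).
Ifit1: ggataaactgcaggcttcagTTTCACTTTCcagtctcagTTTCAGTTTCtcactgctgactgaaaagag
Ifit3: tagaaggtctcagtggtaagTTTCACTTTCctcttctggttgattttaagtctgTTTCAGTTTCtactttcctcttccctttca
Ifit3b: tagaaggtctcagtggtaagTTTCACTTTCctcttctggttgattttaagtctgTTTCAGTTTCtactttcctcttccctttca

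Further stretches come from the other families. The guanylate-binding protein genes Gbp7 (chr3:142530263-142530312), Gbp3 (chr3:142559979-142560034) and Gbp2 (chr3:142620584-142620633), all on the plus strand, are shown as neighbouring paralogs with matches beginning 53, 45 and 59 bases before the start. Oas1a (chr5:120907510-120907565) and Oas3 (chr5:120777705-120777754), both on the minus strand, encode enzymes that make 2-5-linked oligoadenylate. Bst2 (chr8:71537567-71537622, minus strand) encodes tetherin, which holds budding virus at the cell surface. Ddx58 (chr4:40239794-40239843, minus strand) encodes the RNA sensor RIG-I, and its match began 2 bases after the start.
Gbp7: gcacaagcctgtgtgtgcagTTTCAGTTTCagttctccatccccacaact
Gbp3: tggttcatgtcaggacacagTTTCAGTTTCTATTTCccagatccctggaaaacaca
Gbp2: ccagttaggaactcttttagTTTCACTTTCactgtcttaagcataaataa
Oas1a: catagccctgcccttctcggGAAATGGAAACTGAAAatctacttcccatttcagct
Oas3: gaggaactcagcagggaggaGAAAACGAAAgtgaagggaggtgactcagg
Bst2: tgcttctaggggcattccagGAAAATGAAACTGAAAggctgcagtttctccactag
Ddx58: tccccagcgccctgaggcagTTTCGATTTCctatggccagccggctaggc

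The remaining members with the letters were Stat2, Rsad2 and Ifih1, whose matches began 222 and 120 bases before and 32 bases after their start sites. GAS letters were found in Irf1, Ifit2, Ifi35, Bst2, Gbp7 and Oas1a, of which Bst2, Gbp7 and Oas1a held both motifs. Trim25, the only member that was higher in animal 2, held no exact match of either kind. Its window does hold tttcgattcc, which differs at 1 base from the ISRE letters on the opposite strand. With 1 mismatch allowed, 26 of the 28 members matched, as did 38.9% of all genes with a window. The other 13 of the 14 members with a window but no ISRE letters were higher in animal 1. The whole window of Trim25 (chr11:88999153-88999452, plus strand) is given for comparison.
Trim25: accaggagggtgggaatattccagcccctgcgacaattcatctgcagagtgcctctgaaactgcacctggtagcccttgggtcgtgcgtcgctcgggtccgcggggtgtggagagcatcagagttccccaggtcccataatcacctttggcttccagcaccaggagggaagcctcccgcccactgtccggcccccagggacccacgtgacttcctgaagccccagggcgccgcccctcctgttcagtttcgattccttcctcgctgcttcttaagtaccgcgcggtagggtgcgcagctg

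**Figure D1:**
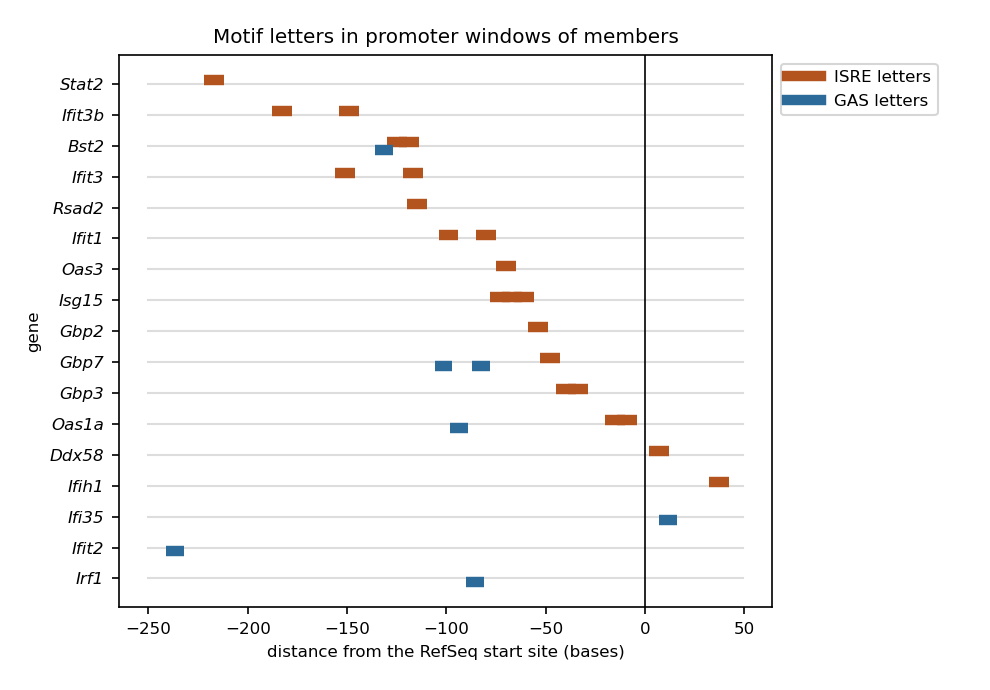
Positions of the ISRE letters (orange) and GAS letters (blue) in the RefSeq promoter windows of the 17 members that held either motif, as distance from the start site in bases. In 12 of the 14 members with ISRE letters a match lay before the start, and in Ddx58 and Ifih1 the only match lay after it.

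All 39 members had reads in both glands, but most were at a low level beside expressed protein-coding genes. In bulk tissue a level sums over all cells, so fewer cells of a type cannot be told apart from less RNA per cell. Levels are in TPM, transcript numbers relative to all transcripts of the library after division by length, and 33 members were at 1 TPM or more in both animals. Of these, 9 were at 10 TPM or more in both: Ifi27, Ifi27l2a, Trim25, Bst2, Ifi35, Stat2, Xaf1, Ddx58 and Dhx58. The 4 members under 1 TPM in both animals were Ifit3b, Oas2, Oas3 and Oasl1, while Usp18 and Mx1 passed 1 TPM only in animal 1. The median of the members' mean TPM was 5.24, below the 10.52 found over 11784 protein-coding genes at 1 TPM or more in both. That filter was not applied to the members, whose median covers all 39. Among all 22015 nuclear protein-coding genes, detected or not, the member at that median, Oasl2, ranked 8325.

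Summed over the list, the members held 842 TPM in animal 1 and 688 TPM in animal 2 (765 ± 109, SD, n = 2). Ifi27 and Ifi27l2a made up 66.8% of that sum in animal 1 and 63.7% in animal 2. Without these genes the sums were 279.9 and 249.98 TPM. Between the most abundant member, Ifi27, and the least abundant, Oas3, mean TPM differed 1160-fold.

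**Figure D2:**
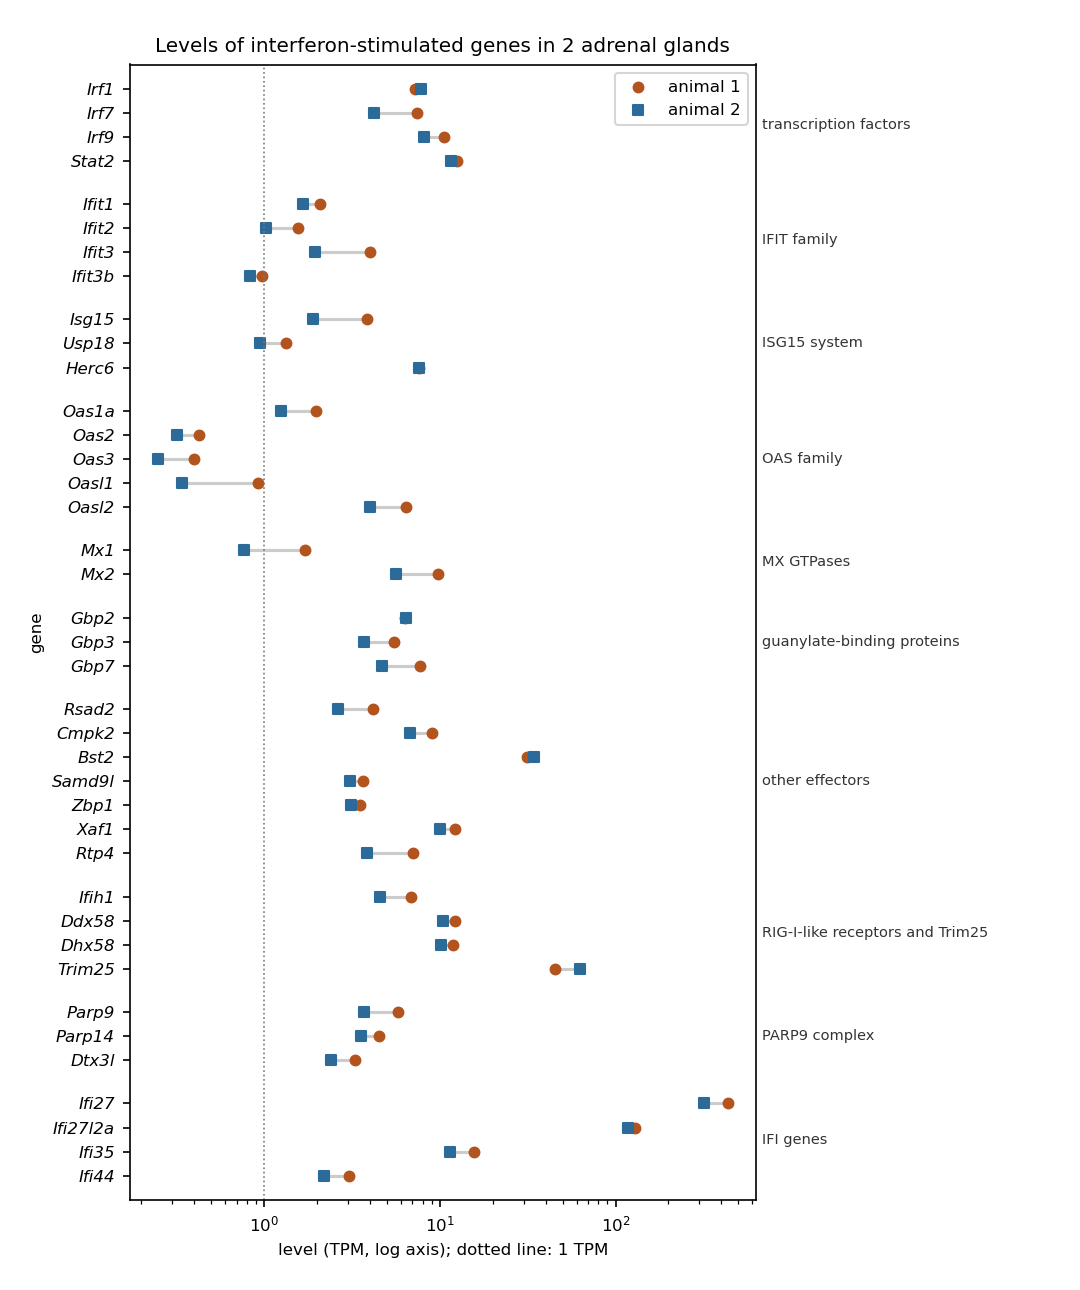
TPM of each member in animal 1 (circles) and animal 2 (squares) on a log axis, ordered by role, with a dotted line at 1 TPM. Ifi27, at 434 and 320 TPM, stands above all others, and the OAS genes Oas2 and Oas3 lie lowest.

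Between the replicates, nearly the whole list was higher in animal 1. Ratios were taken from gene counts scaled by the trimmed mean of M-values, and each has a 95% interval that covers counting error only. There is 1 library per animal, so no test between the animals was possible, and values of other genes in the same libraries are given as background. Scaled counts were higher in animal 1 for 38 of 39 members, all but Trim25, against a background of 52.2% over the 17308 genes whose mean reached 10 counts. With the spike-in RNA as the scale, 35 members were higher in animal 1, against 26.7% of all these genes on that scale, and Irf1, Herc6 and Gbp2 changed side. In the ratio of TPM it was also 35, against 36.8%, and Irf1, Gbp2 and Bst2 changed side.

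The members' ratios were moderate in size. Their median log2 ratio, animal 2 over animal 1, was −0.50 (1.41-fold higher in animal 1), with quartiles of −0.74 and −0.36. Over all 17308 genes the median was −0.02, with quartiles of −0.22 and 0.19. The counting interval lay wholly on the side of animal 1 for 33 members (background 23.3%) and on that of animal 2 for Trim25, and it held 1 for Irf1, Ifit3b, Herc6, Oas2 and Gbp2.

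Over the whole list, 16 members were over 1.5-fold higher in animal 1 (background 7.39%), and 0 were over 1.5-fold higher in animal 2 (background 6.96%). Spike-in scaling lowered the 16 to 8 (4.41% of all genes on that scale) and moved the members' median log2 ratio to −0.29 and that of all genes to 0.19. Of the 31 members whose mean reached 100 counts, 10 were over 1.5-fold higher in animal 1 (background 3.25% of 12171 genes). Irf7, Ifit3, Isg15, Oas3 and Mx1 were over 2-fold higher (background 2.61%). For Irf7, Ifit3, Mx2 and Rtp4 the whole interval lay over 1.5-fold (background 1.93%). Some genes outside the list differed far more, and the largest member ratio stood at place 306 in the order of all 17308.

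**Figure D3:**
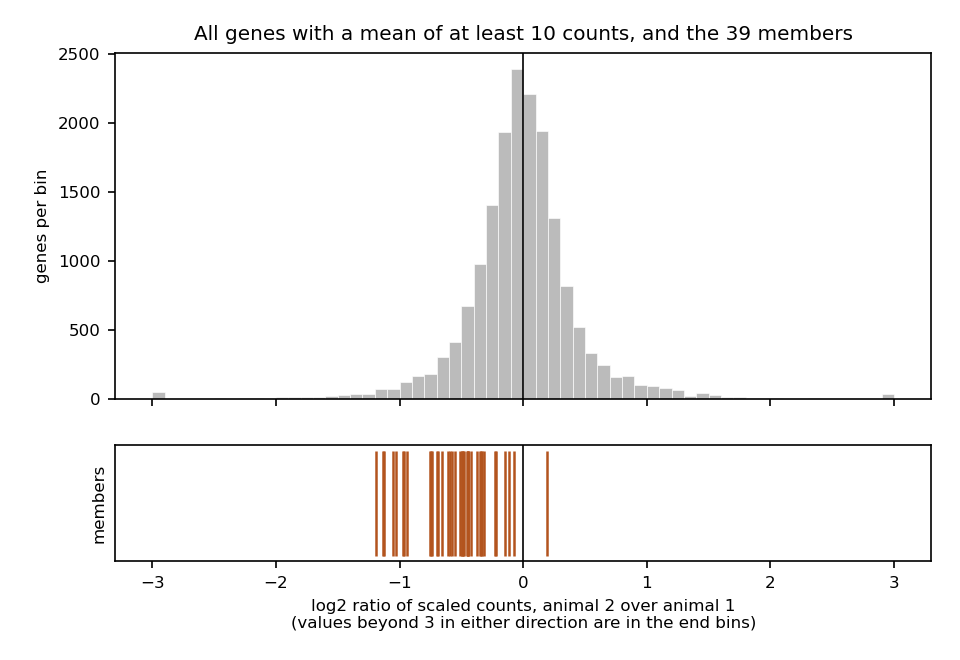
Upper panel, number of genes by log2 ratio of scaled counts (animal 2 over animal 1) in bins of 0.1, for the 17308 genes averaging 10 counts or more; lower panel, the ratio of each of the 39 members as a line. Genes as a whole centre near 0, and 38 of the member lines lie to its left.

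Among the transcription factors, Irf7 differed most. IRF7 is the factor that amplifies type I interferon production and is itself a target. Irf7 had 474 counts (7.40 TPM) in animal 1 and 235 counts (4.24 TPM) in animal 2, 2.04-fold higher in animal 1 (interval 1.74 to 2.39). The ISGF3 subunits were closer together. Irf9 was at 10.52 and 8.19 TPM, 1.39-fold higher in animal 1 (1.25 to 1.55), and Stat2 at 12.6 and 11.6 TPM, 1.27-fold higher (1.17 to 1.38). Irf1, which responds most to interferon gamma, had 468 and 426 counts (7.19 and 7.87 TPM), and its interval held 1 (0.972 to 1.27).

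The 4 IFIT genes lie side by side on chromosome 19 between 34550694 and 34650009 of mm10, and all were low. Ifit3 was at 3.99 TPM in animal 1 and 1.94 TPM in animal 2, 2.19-fold higher in animal 1 (1.74 to 2.79). Ifit2 was at 1.56 and 1.03 TPM, 1.61-fold higher (1.29 to 2.03), and Ifit1 at 2.09 and 1.67 TPM, 1.34-fold higher (1.07 to 1.68). Ifit3b was at 0.97 and 0.83 TPM, and its interval held 1 (0.849 to 1.83). Ifit3 shares 61.8% of its 31-base words with Ifit3b, so the deposited counts of the pair were divided by estimation and their separate values are uncertain. Summed, the pair had 294 counts in animal 1 and 158 in animal 2, 1.88-fold higher in animal 1 (1.55 to 2.30).

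The ISG15 system attaches a small ubiquitin-like protein to other proteins. Isg15 itself, with the 3 overlapping matches shown above, had only 89 counts (3.87 TPM) in animal 1 and 41 (1.89 TPM) in animal 2. It was 2.18-fold higher in animal 1 with a wide interval (1.5 to 3.26). Usp18, the protease that removes ISG15 and restrains receptor signalling, was 1.67-fold higher on 78 and 47 counts (1.15 to 2.46). Herc6, the mouse ligase for ISG15, was the most abundant of this group at 7.60 and 7.58 TPM, and its interval held 1 (0.974 to 1.2).

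OAS enzymes sense double-stranded RNA and make a messenger that activates RNase L. The family here also includes the OAS-like genes Oasl1 and Oasl2. All 5 genes were higher in animal 1 (background 52.2%), and 4 of them by over 1.5-fold (background 7.39%). Oas3 had 64 counts in animal 1 and 28 in animal 2, 2.29-fold higher (1.46 to 3.74). That was the largest ratio of the list by these scaled counts, but not in the second quantification, where Ifit3 was highest (2.16-fold, Oas3 2.12-fold), nor in the ratio of TPM. Oasl1 was 1.96-fold higher on 45 and 23 counts (1.17 to 3.42). Oasl2 was the most abundant of the family at 6.47 and 4.01 TPM and was 1.5-fold higher (1.29 to 1.76). Oas2 had 56 and 40 counts, and its interval held 1 (0.927 to 2.18). Oas1a had 123 and 73.5 counts, 1.69-fold higher (1.26 to 2.31), but 68.7% of its 31-base words are also in Oas1g, a paralog outside the list. Together Oas1a and Oas1g had 162 and 91 counts, 1.80-fold higher in animal 1 (1.38 to 2.35).

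The MX genes encode dynamin-like GTPases that block viruses. Laboratory strains such as C57BL/6J are known to carry defective alleles of both, and the annotation lists Mx2 as a polymorphic pseudogene, while the other 38 members are protein coding. Mx2 had 791 counts (9.81 TPM) in animal 1 and 416 counts (5.63 TPM) in animal 2, 1.92-fold higher in animal 1 (1.70 to 2.17). Mx1 had 90.6 and 43.8 counts (1.72 and 0.77 TPM), 2.08-fold higher (1.44 to 3.07). The genes are neighbours on chromosome 16 and share about 8% of their 31-base words (7.22% of those of Mx1 and 7.96% of those of Mx2). Their summed counts were 882 and 460, 1.94-fold higher in animal 1 (1.73 to 2.17).

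Guanylate-binding proteins attack the vacuoles of intracellular pathogens and are typical targets of interferon gamma. The 3 genes lie within chromosome 3 between 142530342 and 142638008 and did not move together. Gbp3 was at 5.48 and 3.71 TPM, 1.67-fold higher in animal 1 (1.43 to 1.96), and Gbp7 at 7.73 and 4.67 TPM, 1.57-fold higher (1.43 to 1.73). Gbp2 was at 6.35 and 6.45 TPM, and its interval held 1 (0.932 to 1.19). The intervals of Gbp3 and Gbp7 thus did not overlap with that of Gbp2, although the ISRE letters were found in all 3 promoter windows.

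Among 7 further effectors every interval lay on the side of animal 1 (background 23.3%), and 1 passed 1.5-fold (background 7.39%). Rtp4, a chaperone of receptor transport that also restrains the interferon response, had 273 and 141 counts (7.05 and 3.86 TPM) and was 1.96-fold higher in animal 1 (1.59 to 2.42). Rsad2 encodes viperin, which makes a chain-terminating nucleotide from the product of Cmpk2, a nucleotide kinase. The starts of Rsad2 and Cmpk2 lie 12752 bases apart on chromosome 12, and the genes run in opposite directions. Rsad2 was at 4.15 and 2.63 TPM, 1.47-fold higher (1.27 to 1.70), and Cmpk2 at 9.01 and 6.77 TPM, 1.36-fold higher (1.23 to 1.51).

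The other effectors differed less. Bst2 was 1.26-fold higher in animal 1 by scaled counts (762 and 612 counts, interval 1.13 to 1.40), yet its TPM was lower there, at 31.4 against 34.2. In the first deposited transcript table Bst2-201 took 100% of the gene's TPM in animal 1 and 60.2% in animal 2. The rest was given to a shorter processed transcript. In the second quantification Bst2-201 took 98.7% and 97.6%, and the TPM of Bst2 was higher in animal 1, at 51.5 against 38.1. Xaf1, an inhibitor of anti-apoptotic proteins, was at 12.2 and 10.03 TPM and 1.37-fold higher in animal 1. Samd9l, a restrictor of virus translation, was at 3.65 and 3.07 TPM and 1.27-fold higher. Zbp1, a sensor of left-handed nucleic acid that can start necroptosis, was at 3.53 and 3.11 TPM and 1.36-fold higher.

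RIG-I-like receptors detect viral RNA in the cytosol, and TRIM25 is a ubiquitin ligase that was described as an activator of RIG-I. Ifih1, which encodes MDA5, was at 6.87 and 4.6 TPM, 1.40-fold higher in animal 1 (1.26 to 1.57). Dhx58, which encodes LGP2, was at 11.8 and 10.12 TPM, 1.30-fold higher (1.17 to 1.43). Ddx58 was at 12.2 and 10.5 TPM, 1.17-fold higher (1.08 to 1.26). Trim25 went the other way, with 6369 counts (45.2 TPM) in animal 1 and 7354 counts (62.5 TPM) in animal 2, 1.14-fold higher in animal 2 (1.10 to 1.18). It was also the third most abundant member, and its interval did not overlap with that of any receptor in this group.

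The PARP9 complex joins an ADP-ribosyltransferase family member with the ubiquitin ligase DTX3L and raises interferon responses. Parp9 was at 5.79 and 3.72 TPM, 1.62-fold higher in animal 1 (1.41 to 1.86). Its partner Dtx3l was at 3.31 and 2.42 TPM, 1.42-fold higher (1.25 to 1.62), and Parp14, a larger relative, at 4.51 and 3.59 TPM, 1.36-fold higher (1.24 to 1.5). The 3 genes lie together on chromosome 16 between 35832874 and 35972605, and the spans of Parp9 and Dtx3l, which are on opposite strands, overlap by 682 bases. Reads there can be told apart only by strand, and the sources used here do not say how strand entered the counting.

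The IFI genes held most of the signal of the list. Ifi27, which encodes a small mitochondrial membrane protein, had 8671 counts (434 TPM) in animal 1 and 5892 counts (320 TPM) in animal 2, and ranked 89 by mean TPM among 22015 nuclear protein-coding genes. It was 1.49-fold higher in animal 1 (1.44 to 1.54), the narrowest interval among the members higher there. Its neighbour Ifi27l2a, whose end lies 1927 bases from that of Ifi27 on chromosome 12, had 1638 and 1419 counts (129 and 118 TPM), 1.17-fold higher (1.09 to 1.25). The second deposited quantification gave Ifi27l2a 841 and 426 counts, a 2.04-fold ratio, so its size depends on the table used. Ifi35, a binding partner of NMI, was at 15.7 and 11.5 TPM, 1.52-fold higher (1.35 to 1.72). Ifi44, a protein with antiproliferative action, was at 3.06 and 2.20 TPM, 1.41-fold higher (1.16 to 1.72).

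**Figure D4:**
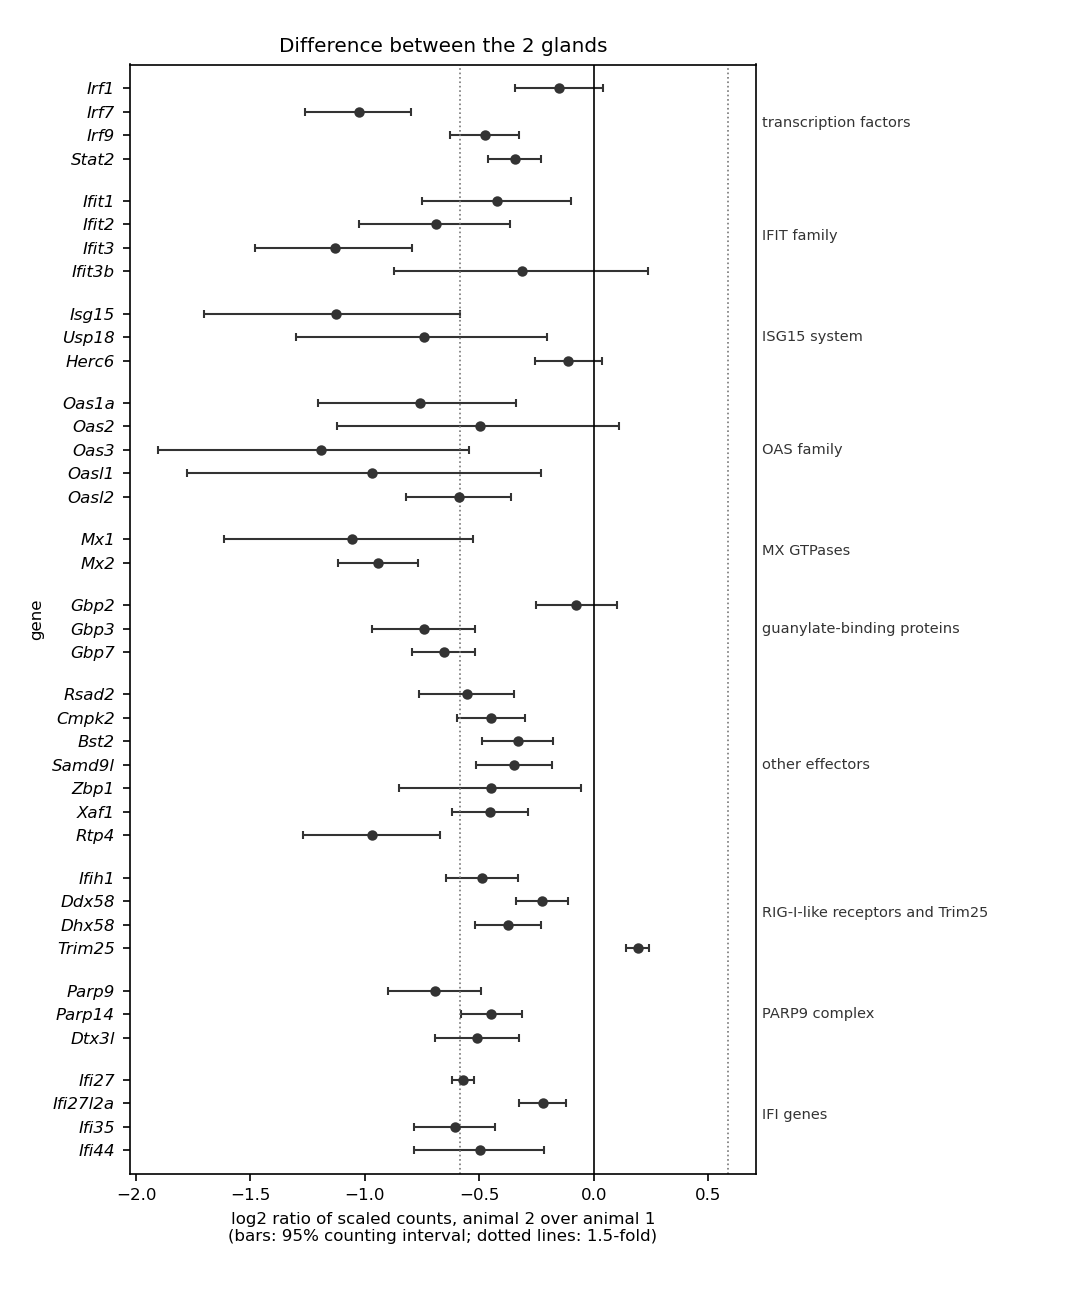
Log2 ratio of scaled counts, animal 2 over animal 1, for each member with its 95% counting interval, ordered by role; the solid line marks equality and dotted lines 1.5-fold. Trim25 is the only point to the right of 0, and the intervals of low-count genes such as Oas3 and Isg15 are the widest.

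Grouped by role, the median log2 ratio was lowest in the MX GTPases (−1.0, 2 genes), the OAS family (−0.76, 5 genes) and the ISG15 system (−0.74, 3 genes). It was −0.65 in the guanylate-binding proteins, −0.56 in the IFIT family, −0.54 in the IFI genes and −0.51 in the PARP9 complex. The other effectors (−0.45), the transcription factors (−0.41) and the RIG-I-like receptors with Trim25 (−0.30) were closest to 0. Each of these medians was below the −0.02 of all genes. Members with ISRE letters had a median of −0.52 (14 genes), those with a window but without the letters −0.49 (14 genes), and those with no window −0.57 (11 genes). Ratios ranged from −1.19 to −0.08 among the members with the letters and from −1.03 to 0.19 among those without, so these sets overlapped.

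Interferon genes themselves were almost unread. Of 21 ligand genes 18 had 0 counts in both animals, including Ifnb1 and the interferon gamma gene Ifng. Ifna5, Ifnab and Ifnk had 1 count each in animal 1 and 0 in animal 2. A count of 0 allows up to 3 counts, which is 0.0877 CPM (scaled to library size) in animal 1 and 0.0834 CPM in animal 2.

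The receptors were present, and by scaled counts most were higher in animal 2. Ifnar1 was at 20.1 TPM in animal 1 and 22.9 TPM in animal 2, and Ifnar2 at 32.5 and 46.5 TPM. Ifngr1 was at 15.5 and 15.1 TPM, Ifngr2 at 7.29 and 6.90 TPM, and Il10rb, a subunit of the type III receptor, at 79.3 and 88.6 TPM. By scaled counts 4 of these 5 were higher in animal 2, all but Ifngr1, and the median log2 ratio of the 5 was 0.15. Over all genes, 52.2% were higher in animal 1. The counting interval lay wholly on the side of animal 2 for 3 receptor genes and held 1 for Ifngr2, whose TPM was lower in animal 2. No share over all genes was taken for intervals on the side of animal 2. The partner subunit gene Ifnlr1 had 3 counts in animal 1 and 0 in animal 2.

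Other genes of the pathway lay nearer to the background. Animal 1 had the higher value for 4 of 5 kinase and STAT genes, whose median was −0.10. Jak1 was at 39.8 and 54.6 TPM, with a log2 ratio of 0.16. Stat3 was at 27.9 and 27.5 TPM, and the least abundant, Jak2 (5.92 and 6.31 TPM) and Tyk2 (4.45 and 4.42 TPM), differed within their counting intervals. Among 12 sensors and adaptors that lead to interferon production 6 were higher in each animal, with a median of 0.01. The most abundant were Irf3 at 35.7 and 45.2 TPM, Tbk1 at 14.6 and 15.9 TPM, and Mavs, the adaptor of the RIG-I-like receptors, at 12.6 and 16.9 TPM. The DNA sensors Tlr9 (0.41 and 0.29 TPM) and Cgas (0.24 and 0.18 TPM) were the least abundant.

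The 9 negative regulators were split 5 to 4 toward animal 1, and their median was −0.08. Socs3, an inhibitor of cytokine receptor kinases, was read 237 times in animal 1 and 90 times in animal 2, a 2.65-fold difference (log2 ratio −1.41). Socs1, which restrains interferon receptors, had 102 and 94 counts. Irf2bp2, Irf2 and Pias1 were the most abundant, with log2 ratios of −0.08, 0.16 and 0.13. Of 4 other genes named for the IRF family 3 were higher in animal 2, and their median was 0.09. Irf8, a factor of myeloid cells, was at 11.5 and 14.5 TPM, Irf4 at 7.57 and 8.93 TPM, and Irf2bpl at 16.5 and 17.7 TPM. These lists share both libraries with the members, and the differences between lists were not tested.

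**Figure D5:**
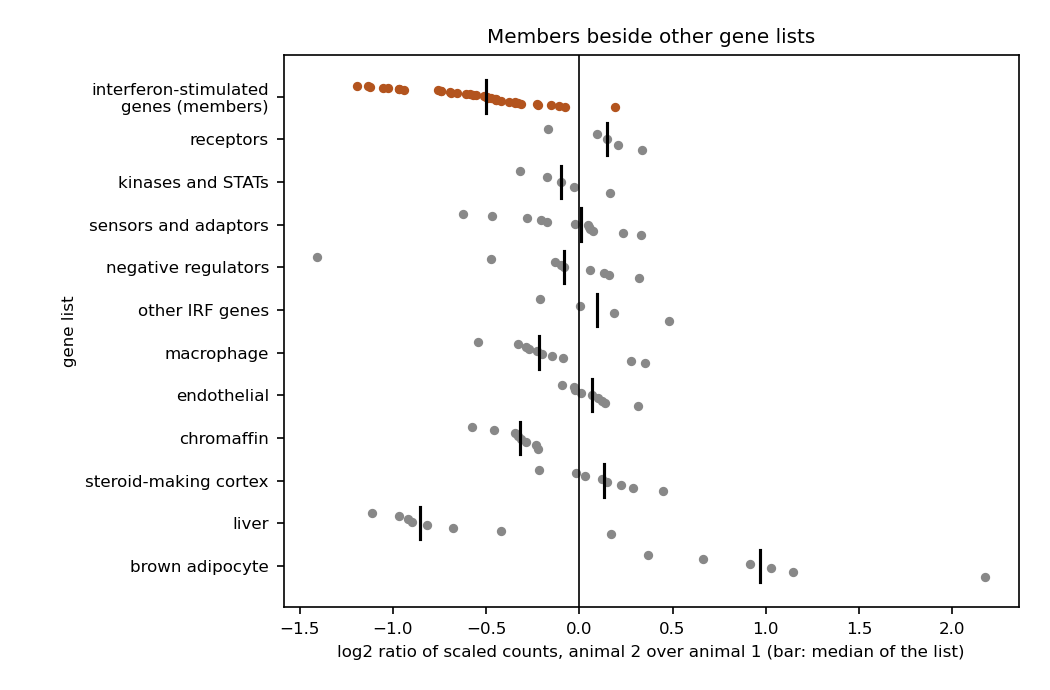
Log2 ratio of scaled counts, animal 2 over animal 1, for the members and for genes of 11 other lists that averaged 10 counts or more; each point is a gene and each bar the list's median. The members centre at −0.50 and the receptors at 0.15, while liver markers (−0.86) and brown adipocyte markers (0.97) lie farther from 0.

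Other differences between the glands stood beside these ratios. The libraries held 34517566 and 36234838 counts in all, and 7SL RNA took 33.1% and 20.4% of TPM, mitochondrial genes 15.9% and 22.4%. Markers of steroid-making cortex (16678 and 19174 TPM summed) and of chromaffin cells (1830 and 1495 TPM) were abundant in both, which checks the tissue label. Macrophage markers summed to 163 and 158 TPM, and 8 of the 10 were higher in animal 1 (median log2 ratio −0.22). Lymphocyte markers summed to 1.27 and 1.11 TPM, and all 10 were above 0. Monocyte and neutrophil markers summed to 5.71 and 6.59 TPM. Of these 8 markers, 4 averaged 10 counts or more, and all 4 were higher in animal 1 by scaled counts (median log2 ratio −0.16). The counting interval lay wholly on that side for 1 of them. The rarer markers of this list were higher in animal 2. Among those, S100a8, Ly6g and Mpo were at 0 in animal 1 and had only 16, 1 and 7 counts in animal 2. Of 9 dendritic cell markers, which summed to 41.2 and 51.1 TPM, 5 had at least 10 counts and 3 of these were higher in animal 1. Most of that sum was Tcf4 alone, at 35.5 and 46.2 TPM. Only 2 of the 9 were at 1 TPM or more in both animals.

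Markers of adjoining tissues and blood also differed between the glands. Kidney markers summed to 20.5 TPM in animal 1 and 0.5 in animal 2, where 5 of 8 were at 0, and liver markers were higher in animal 1 for 7 of 8 (355 and 305 TPM). Pancreas markers summed to 22.5 and 18.8 TPM, of which Cela1 alone held 20.5 and 18.7 TPM. Ctrb1, Prss1 and Cpa1 had 27, 1 and 12 counts in animal 1 and 0 in animal 2, while Amy2a5 was at 0 in animal 1. All 6 brown adipocyte markers were higher in animal 2 (653 and 1270 TPM), as were 5 of 7 adipocyte and 5 of 6 erythroid markers. Chromaffin markers were all 8 higher in animal 1 (median −0.32). Endothelial markers had a median of 0.07. The part of these differences in the members' ratios was not tested.

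Transcript values showed which forms of the genes were read. The most abundant transcript was the same in both animals for 35 members and differed for Irf9, Ifih1, Mx1 and Oasl1. Ifi27 was led by Ifi27-209, annotated as a retained intron, with 44.0% of the gene's TPM in animal 1 and 51.5% in animal 2. All its retained-intron transcripts together took 60.6% and 68.6%, so less than the full 434 and 320 TPM was in transcripts annotated as coding (39.4% and 31.4%). Oasl2 was led by Oasl2-205, annotated as a target of nonsense-mediated decay, with 53.0% and 51.7%. In the second quantification Oasl2-205 took 25.5% and 34.6%, and the protein-coding Oasl2-201 led with 29.0% and 37.1%. Retained-intron transcripts took 31.9% and 39.2% of Stat2 and 22.2% and 40.0% of Herc6. Total RNA includes unspliced molecules, which such transcripts can collect.

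The second deposited quantification placed the members much like the first. It put 38 of 39 members higher in animal 1, again all but Trim25, where 52.8% of all genes were, and 18 over 1.5-fold higher there, where 6.97% were. Ifi27l2a differed most between the quantifications. Its fold was 1.17 in the first and 2.04 in the second, and its paralog Ifi27l2b had 0 counts in both. For Irf1, the transcript that led in the first table took 86.6% and 54.9% of the gene's TPM there and 26.3% and 18.2% in the second, while the gene's fold was 1.11 and 1.15.

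Shared sequence touched a minority of the list. The 8 members that shared over 10% of their 31-base words with other genes were Oas1a, Ifit3, Ifit3b, Gbp7, Herc6, Isg15, Rtp4 and Ifit1. Counts were fractional for 13 members, whose median log2 ratio was −0.65, against −0.50 for the 26 members with whole counts, of which 25 were higher in animal 1. Of the 39 genes 21 lay within 200 kb of another member, in 8 groups, so their positions are not independent of each other. Ratios within such groups were close in Rsad2 and Cmpk2 (−0.55 and −0.45) and in Mx1 and Mx2 (−1.05 and −0.94). They were well apart in Gbp2 and Gbp3 (−0.08 and −0.74). The IFIT group ranged from −0.31 to −1.13, but its ends were Ifit3b and Ifit3. The counting intervals of that pair overlapped, and their separate values are uncertain.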

How the data were processed

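Total RNA from 2 adrenal glands was sequenced, with 300 ng of RNA per library and ERCC spike-ins per the labels. Per the deposited file listing, all tables used mm10 and GENCODE M21; the sources used here name no aligner or settings. The authors deposited estimated (expected) counts for genes and transcripts, which need not be whole, and TPM, whose sum is fixed over all rows, spike-ins included. Per the file headers, transcript tables also give each transcript's percent within its gene. Deposited lower and upper TPM bounds are of unstated level, and no result above rests on them. A second transcript table holds estimated counts and TPM from another program and lacks 86 genes of the gene table, per the file headers and rows.

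Genes were named through that table, as the rule for the members states. Expected counts were rounded for scaling (edgeR 4.0.16, trimmed mean of M-values, factors 1.02 and 0.981) and used as deposited in ratios with a prior of 0.5 counts. Intervals were exact Clopper-Pearson at 95%, computed on rounded counts, and cover counting error only, since no molecular identifiers are named in the labels or headers. Rows naming no gene held 0.909% and 0.760% of counts, nearly all spike-ins, and were left out. Sharing was computed over 31-base words of annotated transcripts. Steps were tested on simulated data.

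Every member is named. Of the pathway lists, the 3 most and 2 least abundant genes and the ligand and receptor genes above 0 counts are named. Genes of these lists over 1.5-fold apart with a mean of 100 counts are named too. Marker lists are given by counts and sums. Ifnb1, Ifng, Oas1g, Ifi27l2b, S100a8, Ly6g, Mpo, Tcf4, Cela1, Ctrb1, Prss1, Cpa1 and Amy2a5 were named after their values were seen. A few pathway genes are not reported here by name; counts and medians of their lists still cover them. The members and lists were chosen with earlier results of these data known.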

Additional observations from a re-analysis of the deposited data

How the results depend on the processing

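No paired analysis was possible because the labels give a single group. With a threshold of 5 TPM in place of 1 TPM, 15 members passed in both animals; 0.5 TPM or the second quantification gave 36, and each library alone gave 33 to 35. Mean summed TPM was 1280 in the second quantification and 2292 when rescaled over nuclear protein-coding genes, and 688 to 842 with either library left out. With spike-in scaling the median log2 ratio was −0.29, while that of all genes moved from −0.02 to 0.19, and 8 members were over 1.5-fold apart (4.41% of all genes toward animal 1). A mean of at least 100 counts left 10 such members of 31. In the TPM ratio the median of all genes was 0.11. Under the other settings the count was 14 to 18, all toward animal 1, where 6.47% to 8.70% of all genes were. Under any setting 0 members passed 1.5-fold toward animal 2 (6.96% of all genes in the main setting). Of 234 alternative values of single members, 201 fell within the counting interval and 33 outside it; 6 values in 4 members changed sign, and none of those over 1.5-fold did. DESeq2 size factors were 1 and 1, so that setting used unscaled counts. Allowing 1 mismatch in the ISRE letters put them in 26 of 28 members, but also in 38.9% of all genes. Depth limits the members under 100 counts most, and 1 library per animal leaves the ratios without replicates.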
